A study of Homo sapiens with 5 samples.

Results

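The genes described here make, distribute, store and export cholesterol. They are 33 genes chosen by symbol and by role in the pathway, and all 33 were found among the 51055 Ensembl gene IDs of the read count table. In HL60 cells carrying a hairpin antisense to miR-378a-3p, 30 of the 33 were lower than in cells carrying the control vector. Among all genes tested, 33.2% were lower. The 30 included every one of the 20 measured synthesis enzymes. HL60 is an established human promyelocytic leukaemia line. The ZIP group (2 libraries) was transduced with a lentivector whose hairpin yields an antisense RNA to the microRNA. The SCR group (2 libraries) was transduced with the control lentivector of the same series, which the labels call scramble in one place and empty in another. The untransduced group (1 library) received no vector. Per the labels, both vectors carry green fluorescent protein, were delivered by spinning with polybrene (8 µg/mL) at multiplicity of infection 20, and were selected for with puromycin (2 µg/mL) on days 3 to 8. The ZIP and SCR cells therefore share transduction and drug selection, and the untransduced cells had neither.

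Cholesterol is built from acetyl-CoA through mevalonate, isoprenoid diphosphates, squalene and lanosterol. When sterols in the endoplasmic reticulum run low, the escort protein SCAP carries the membrane-bound precursor of the transcription factor SREBP2 to the Golgi, where it is cut free to switch on the enzymes of the whole chain. When sterols are plentiful, the INSIG proteins hold SCAP back. Oxysterols act on the opposite side of the balance: they activate the nuclear receptors LXR alpha and LXR beta, whose textbook targets include the exporters ABCA1 and ABCG1 and the ubiquitin ligase MYLIP, which removes lipoprotein receptors from the surface. In macrophages both arms follow the sterol load of the cell.

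The microRNA that the ZIP vector was built against is shown first, because the vector's hairpin encodes its antisense. It is hsa-miR-378a-3p, at chr5:149732867-149732888 on the plus strand of GRCh38.p14 (sequence from RefSeq), with the seed, bases 2 to 8, in capitals.
hsa-miR-378a-3p: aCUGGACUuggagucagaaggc
The promoters below belong to the member with the largest fall in ZIP against SCR within the control, synthesis, transport and efflux genes, and show the 250 bases before the start that RefSeq gives, read 5′ to 3′ along the gene's strand. They lie at chr7:155297628-155297877 (plus strand) for INSIG1, chr5:43313413-43313662 (minus) for HMGCS1, chr5:111512536-111512785 (minus) for STARD4 and chr9:104928156-104928405 (minus) for ABCA1, all in GRCh38.p14. Capitals mark matches, on either strand, to CCAAT, the letters bound by NF-Y, a partner of SREBP2, and to the LXR repeat DR4, searched as the hexamers NGGTNA and NGGTCA with 4 bases between them.
INSIG1: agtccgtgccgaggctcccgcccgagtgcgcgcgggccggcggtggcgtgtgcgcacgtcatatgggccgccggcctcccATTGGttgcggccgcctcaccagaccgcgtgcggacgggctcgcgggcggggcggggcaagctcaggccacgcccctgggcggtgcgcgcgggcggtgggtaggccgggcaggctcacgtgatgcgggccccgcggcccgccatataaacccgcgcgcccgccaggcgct
HMGCS1: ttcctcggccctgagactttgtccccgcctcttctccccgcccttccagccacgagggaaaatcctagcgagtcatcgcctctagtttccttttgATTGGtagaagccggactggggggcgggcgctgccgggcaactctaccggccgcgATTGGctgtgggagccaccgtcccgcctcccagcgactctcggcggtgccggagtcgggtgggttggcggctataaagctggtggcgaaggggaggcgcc
STARD4: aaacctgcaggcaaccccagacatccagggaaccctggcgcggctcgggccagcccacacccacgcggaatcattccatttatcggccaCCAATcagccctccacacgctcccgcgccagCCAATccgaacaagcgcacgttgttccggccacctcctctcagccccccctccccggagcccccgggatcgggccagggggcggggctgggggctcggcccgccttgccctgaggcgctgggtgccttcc
ABCA1: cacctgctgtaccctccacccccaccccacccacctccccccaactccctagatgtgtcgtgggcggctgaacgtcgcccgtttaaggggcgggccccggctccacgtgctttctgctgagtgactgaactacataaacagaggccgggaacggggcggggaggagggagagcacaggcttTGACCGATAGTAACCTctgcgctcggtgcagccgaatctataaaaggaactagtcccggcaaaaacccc
The capitals are CCAAT boxes in the first 3 promoters and an LXR repeat, written here on the opposite strand, in that of ABCA1.

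Promoters of 29 of the 33 members were in the RefSeq table, each a window of 300 bases that ends 50 bases past the start. ACAT2, FDFT1, SQLE and ABCG1 had none there. CCAAT was present in the windows of 21 of these 29 members (72.4%), against 39.7% of the 27305 genes in the table. The GC box GGGCGG was present in 27 of 29 (93.1%), against 48.3% of genes. The gene shares in this paragraph cover all genes of the RefSeq table, tested here or not, whereas all members were tested. A gene with several windows was counted if any of them matched. The sterol response element TCACNCCAC was found in SREBF2, the gene for SREBP2, and in no other of the 29, against 1.39% of genes. Its site lies 125 to 133 bases before the start, at chr22:41832972-41832980 (plus strand), and is shown within the window chr22:41832962-41832990, which adds 10 bases on each side.
SREBF2: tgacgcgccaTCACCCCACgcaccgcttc
The LXR repeat was found in ABCA1 alone of the 29, against 0.297% of genes, 54 to 69 bases before the start. Both strands were searched, and the motifs do not contain one another. A match describes letters in this window and is no evidence of binding. Only these exact letters were searched, so the lack of a match is no evidence that a promoter lacks such an element. As a description, the median log2 fold change of ZIP against SCR was -1.57 in 21 members with CCAAT and -0.54 in 8 without. Among all tested genes it was -0.03 over 4310 with CCAAT and 0.01 over 5688 without. The members ranged from -3.00 to 0.14 with CCAAT and from -4.50 to 0.39 without. Those without were PMVK, CYP51A1, LBR, SCAP, INSIG2, NPC1, NR1H2 and ABCA1, most of them not synthesis genes. The split thus also differed by role, and a link of CCAAT to the fall was not tested.

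Levels are in CPM, each gene's counts relative to the total of its library with scaling by the trimmed mean of M-values (TMM), and they compare a gene between libraries. A gene was called changed when the adjusted p of edgeR's quasi-likelihood test (Benjamini-Hochberg over all genes tested) was under 0.05. Of the 33 members, 31 were called in ZIP against SCR, where 65.4% of all 14643 genes tested were called. The members' calls were 30 falls and 1 rise, beside 33.2% of all genes that fell and 32.2% that rose. Since most genes were called, changes of at least 2-fold are given too. They comprised 20 of the 33 members, against 14.1% of all genes: 20 fell, against 11.0% of all genes, and 0 rose, against 3.13%. The falls include ABCG1, which passed the filter on low counts only through SCR, where it was high. The members' median log2 fold change was -1.48, beside -0.0018 over all genes. Both ZIP libraries lay below both SCR libraries for 30 members, above them for SCAP and NR1H2, and overlapped them for NR1H3. Among all tested genes, 40.9% lay below and 40.1% above in this way.

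Library totals were 30925067 and 24406580 counts in ZIP, 24539092 and 24978022 in SCR and 25064771 in the untransduced library, so that 3 counts corresponded to 0.097 to 0.123 CPM. Over the members, the coefficient of variation between replicates had a median of 2.62% in ZIP and 1.58% in SCR. The gene of the microRNA itself, MIR378A, had 0 and 2 counts in ZIP, 0 in both SCR libraries and 0 in the untransduced one, so these counts cannot show whether the microRNA was lowered. All 6 promyelocyte markers were present and rose in ZIP against SCR, where 32.2% of all genes rose. They summed to 22914 and 22257 CPM in ZIP, 11776 and 11774 CPM in SCR and 24585 CPM untransduced. Of 13 listed monocyte and macrophage markers 12 were in the table and 11 were tested. Of these, 8 fell and 1 rose in ZIP against SCR, beside 33.2% and 32.2% of all genes. SIGLEC1, VCAN, MARCO and FCGR3A passed the filter on low counts only through SCR, where they were high. In SCR against untransduced cells 10 of the 11 markers rose, against 32.7% of all genes. In ZIP against untransduced cells 6 did, against 28.5%. Their summed level was 61.7 and 62.9 CPM in ZIP, 222 and 226 CPM in SCR and 27.7 CPM untransduced, with C1QB at 0 in all libraries and SIGLEC1 at 0 in both ZIP libraries. Lymphoid markers summed to 13.9 to 24.8 CPM, erythroid and megakaryocyte markers to 2.88 to 5.34 CPM, and epithelial and fibroblast markers to 0.869 to 2.92 CPM per library. The part of any of these in the differences of the cholesterol genes was not tested.

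**Figure D1:**
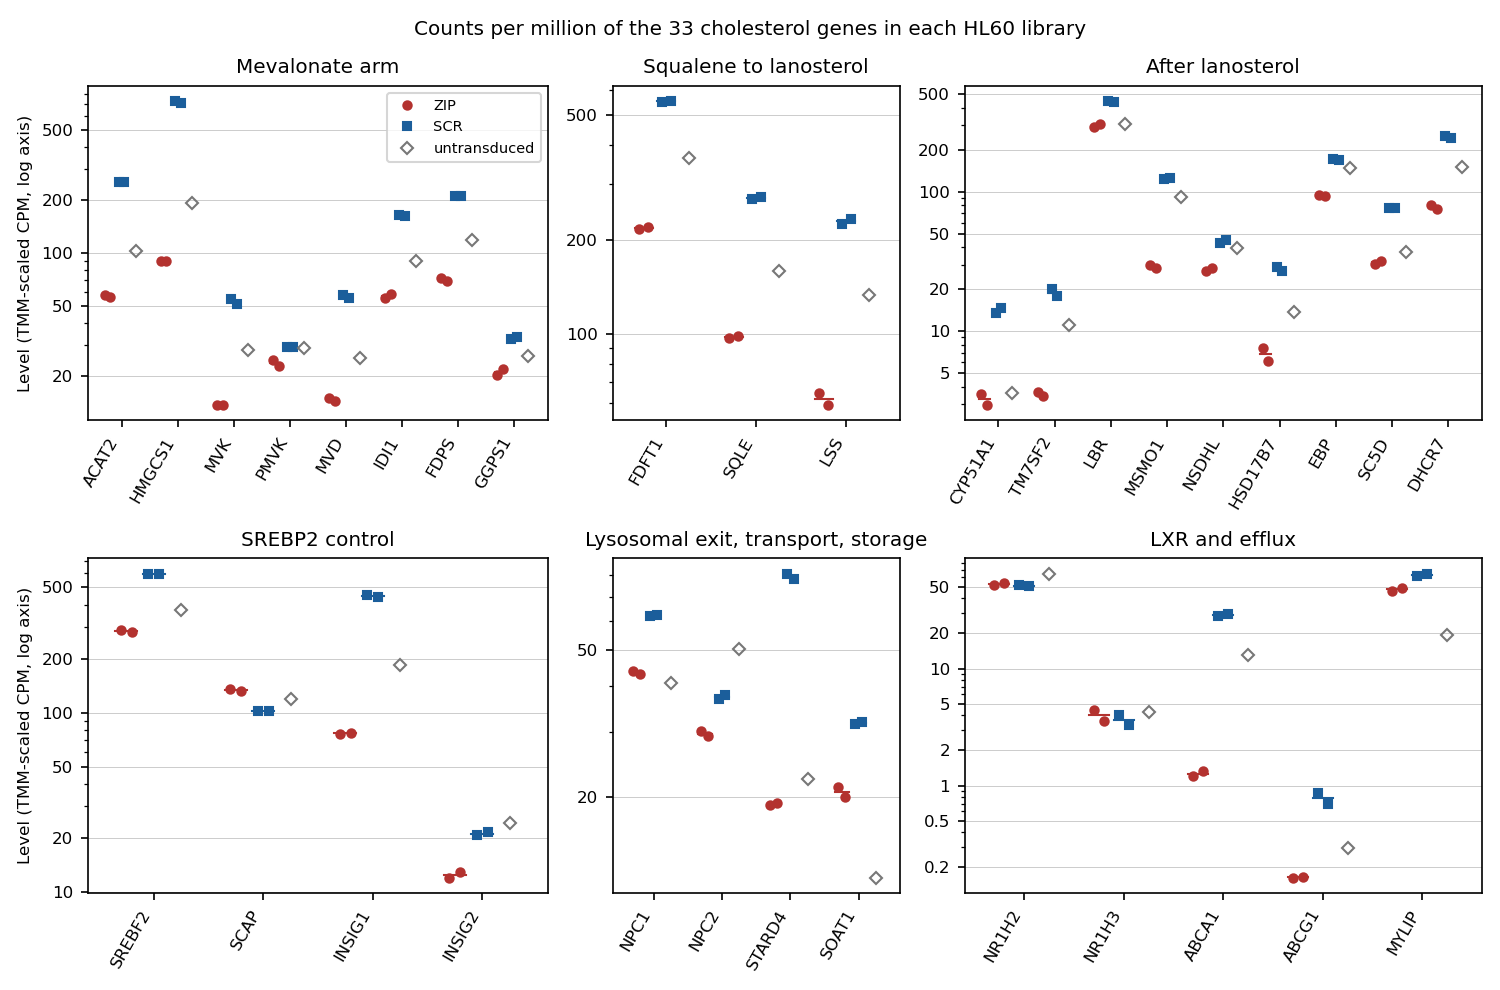
Level of each of the 33 genes in each library (TMM-scaled CPM, log axis), grouped by role, with ZIP as red circles, SCR as blue squares and the untransduced library as open diamonds; short lines are group means. All 20 synthesis genes lie lowest in ZIP and highest in SCR, with the untransduced library between, while SCAP runs the other way and NR1H3 overlaps. The untransduced library is barely apart from ZIP for CYP51A1 and LBR and from SCR for PMVK. The share of all genes in this order was left uncounted.

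The 20 synthesis enzymes together summed to 1298 CPM in each ZIP library, against 3755 and 3726 CPM in SCR and 2069 CPM in the untransduced library. This was 0.128% and 0.129% of all counts in ZIP, against 0.388% and 0.383% in SCR and 0.198% in untransduced cells. All 20 fell in ZIP against SCR, where 33.2% of all genes fell. Of the 20, 15 fell at least 2-fold, against 11.0% of all genes. Their median log2 fold change was -1.61. In these bulk samples, fewer cells expressing a gene and less RNA per cell cannot be told apart.

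All 8 enzymes of the mevalonate arm fell. HMGCS1 (ENSG00000112972, chr5:43289395-43313512 in GENCODE 29 on GRCh38), the synthase that makes HMG-CoA, had the largest fall of the synthesis genes. It stood at 90.5 and 90.0 CPM in ZIP, 729 and 714 CPM in SCR and 192 CPM in untransduced cells. The ZIP level was 7.99-fold lower than in SCR (log2 fold change -3.00 ± 0.03 SE, n = 2 and 2, adjusted p = 1.0e-24). Only 1.86% of all tested genes had a lower log2 fold change. ACAT2, the thiolase that joins acetyl-CoA units one step earlier, had 57.8 and 56.1 CPM in ZIP, 255 CPM in both SCR libraries and 102 CPM in untransduced cells (-2.16 ± 0.03, adjusted p = 1.2e-21 for ZIP against SCR). The replicates of each group were thus close together and the groups far apart for both genes.

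The next steps were uneven. Mevalonate kinase, MVK, had 13.7 and 13.8 CPM in ZIP, 54.9 and 51.2 CPM in SCR and 28.3 CPM untransduced, a log2 fold change of -1.95 ± 0.06 for ZIP against SCR. MVD, the decarboxylase that yields isopentenyl diphosphate, had 15.1 and 14.6 CPM in ZIP, 58.0 and 55.3 CPM in SCR and 25.3 CPM untransduced (-1.93 ± 0.06). PMVK, the kinase between these enzymes, differed far less, with 24.6 and 22.7 CPM in ZIP, 29.1 and 29.5 CPM in SCR and 28.8 CPM untransduced. Its groups did not overlap and it fell by 0.30 ± 0.06 on the log2 scale (adjusted p = 1.7e-04), the smallest fall among the 20 synthesis genes. Its untransduced level was close to that of SCR.

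Of the isoprenoid diphosphate enzymes, the isomerase IDI1 had 55.5 and 58.9 CPM in ZIP, 165 and 162 CPM in SCR and 90.3 CPM untransduced (-1.52 ± 0.03 for ZIP against SCR). Farnesyl diphosphate synthase, FDPS, which supplies the branch point to sterols, had 72.0 and 69.5 CPM in ZIP, 209.8 and 212 CPM in SCR and 119 CPM untransduced (-1.57 ± 0.03). GGPS1 takes farnesyl diphosphate towards geranylgeranyl groups, away from sterols. It had 20.3 and 22.0 CPM in ZIP, 32.5 and 33.2 CPM in SCR and 26.0 CPM untransduced, a smaller fall of 0.64 ± 0.06 on the log2 scale (adjusted p = 8.6e-09). The difference in size between GGPS1 and FDPS was not tested.

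All 3 enzymes from squalene to lanosterol fell by more than 2-fold. FDFT1, squalene synthase and the first step committed to sterols, had 217 and 219 CPM in ZIP, 552 and 554 CPM in SCR and 365 CPM untransduced (-1.34 ± 0.03). SQLE, which oxidises squalene, had 96.6 and 98.2 CPM in ZIP, 269.6 and 273 CPM in SCR and 158 CPM untransduced (-1.48 ± 0.03). LSS, which closes the rings, had 64.4 and 59.1 CPM in ZIP, 225 and 233 CPM in SCR and 133 CPM untransduced (-1.88 ± 0.04). The adjusted p of ZIP against SCR was 1.6e-19 or less for these 3 genes.

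All 9 enzymes after lanosterol fell, over a wider range, from -2.41 for TM7SF2 to -0.57 for LBR on the log2 scale. These genes encode reductases of the same sterol step, and LBR is also a protein of the inner nuclear membrane that holds chromatin. TM7SF2 had 3.66 and 3.43 CPM in ZIP, 20.0 and 17.8 CPM in SCR and 11.0 CPM untransduced (-2.41 ± 0.11, adjusted p = 6.0e-14). LBR had 293 and 304 CPM in ZIP, 446 and 440.1 CPM in SCR and 305 CPM untransduced (-0.57 ± 0.03, adjusted p = 1.5e-13), so its untransduced level stood just above ZIP. Per kilobase of annotated exon, LBR was far the more abundant, at 55.7 and 57.8 CPM per kb in ZIP against 84.9 and 83.7 in SCR and 58.0 untransduced, while TM7SF2 had 1.07 and 1.01 CPM per kb in ZIP against 5.88 and 5.22 in SCR and 3.23 untransduced.

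MSMO1, an oxidase that removes methyl groups, had 29.9 and 28.2 CPM in ZIP, 124 and 125 CPM in SCR and 91.8 CPM untransduced (-2.09 ± 0.04). HSD17B7, a ketoreductase of the same demethylation, had 7.58 and 6.08 CPM in ZIP, 28.6 and 26.9 CPM in SCR and 13.7 CPM untransduced, a 4.01-fold fall in ZIP against SCR (adjusted p = 5.4e-14). Their partner NSDHL differed less, at 27.2 and 28.2 CPM in ZIP, 42.6 and 45.2 CPM in SCR and 39.3 CPM untransduced (-0.67 ± 0.05). Of the last enzymes, the isomerase EBP had 94.6 and 93.8 CPM in ZIP, 173 and 169 CPM in SCR and 148 CPM untransduced (-0.86 ± 0.03). The desaturase SC5D had 30.5 and 31.6 CPM in ZIP, 76.0 and 75.9 CPM in SCR and 37.2 CPM untransduced (-1.29 ± 0.04), near the ZIP level. The reductase DHCR7 had 80.4 and 75.6 CPM in ZIP, 252 and 241 CPM in SCR and 151 CPM untransduced (-1.66 ± 0.03). In each of these 6 genes both ZIP libraries were below both SCR libraries, as they were for 40.9% of all tested genes.

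CYP51A1, the lanosterol demethylase, had 109 and 71 counts in ZIP, 343 and 376 in SCR and 86 in untransduced cells, or 3.56 and 2.94 CPM in ZIP, 13.5 and 14.6 CPM in SCR and 3.59 CPM untransduced (-2.10 ± 0.12, adjusted p = 2.6e-12). It was the lowest of the 20 synthesis genes per kilobase in every library. Other annotated genes overlap 83.2% of its exon bases, on both strands, so its values are uncertain. Overlap also covers 52.3% of the exon bases of ACAT2, 41% of GGPS1, 18.6% of FDPS, 15% of HMGCS1 and 14.8% of IDI1. FDPS, HSD17B7 and CYP51A1 have 8, 2 and 3 annotated pseudogenes, which held 2 to 53 counts per library in sum for any 1 of these genes, so reads may be split between copies.

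The order of the synthesis genes per kilobase changed at the top. LBR was the highest of the 20 in both ZIP libraries. In SCR, HMGCS1 was the highest at 155 and 151.9 CPM per kb, against 19.2 and 19.1 CPM per kb in ZIP. In untransduced cells FDFT1 led at 70.3 CPM per kb. The median over the 20 genes was 13.1 and 13.3 CPM per kb in ZIP, 34.5 and 34.7 in SCR and 21.6 in untransduced cells.

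**Figure D2:**
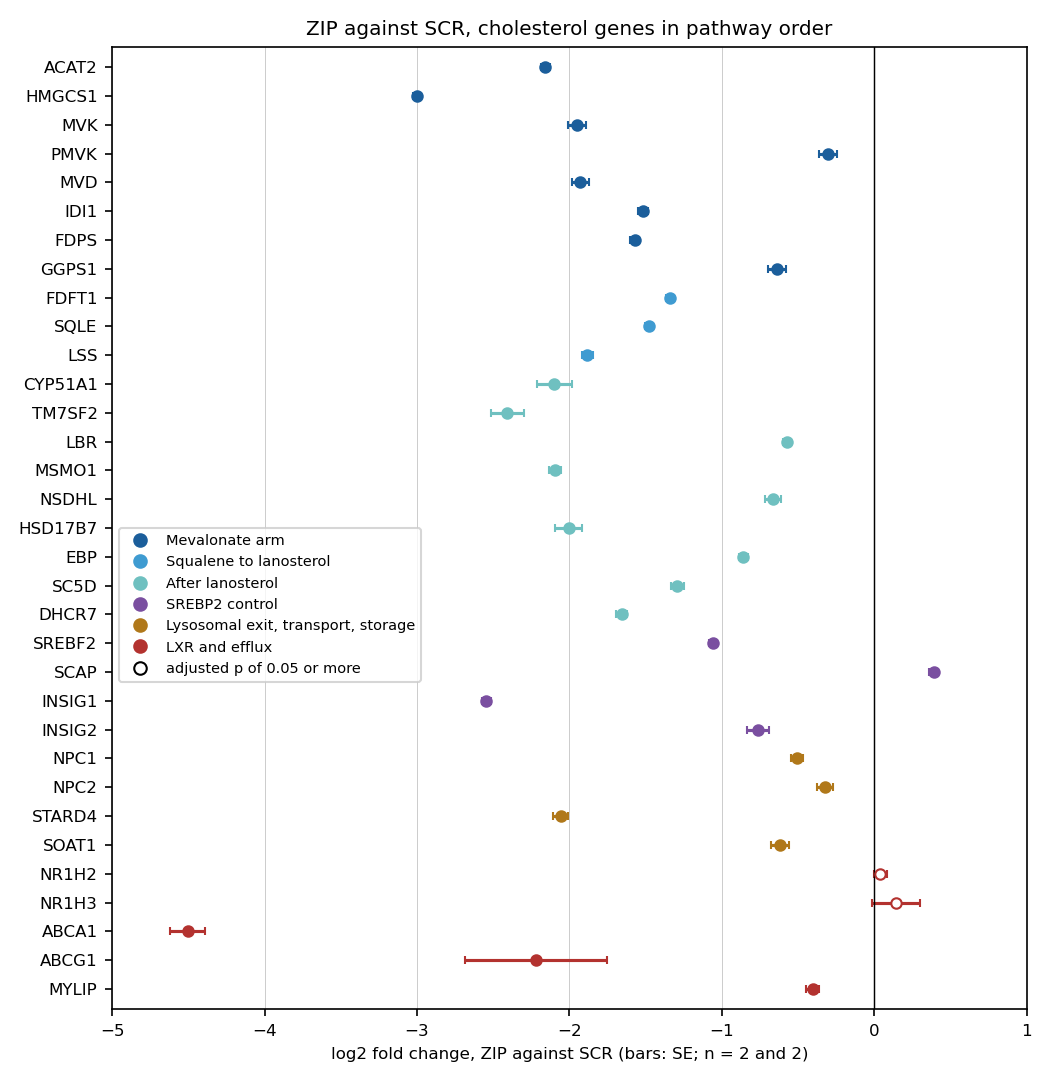
Log2 fold change of ZIP against SCR for the 33 genes in pathway order, with standard error bars (n = 2 and 2 libraries), coloured by role; open circles have an adjusted p of 0.05 or more. ABCA1 lies farthest left at -4.50 and HMGCS1 next at -3.00, SCAP is the filled point to the right of 0, and the receptors NR1H2 and NR1H3 are open.

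The 4 genes that control SREBP2 did not move together. SREBF2 (ENSG00000198911, chr22:41833079-41907308), which encodes SREBP2 and carries the sterol response element printed above, had 289 and 281 CPM in ZIP, 595 CPM in both SCR libraries and 375 CPM untransduced. It fell 2.08-fold in ZIP against SCR (log2 fold change -1.06 ± 0.03, adjusted p = 4.3e-18). INSIG1 (ENSG00000186480, chr7:155297776-155310235), the retention protein whose own gene is a classical SREBP target, had 76.4 and 76.7 CPM in ZIP, 452 and 442 CPM in SCR and 183 CPM untransduced. Its fall was 5.84-fold (-2.55 ± 0.03, adjusted p = 5.4e-23), with 2.75% of all genes lower still. The related retention protein INSIG2 had 12.1 and 13.0 CPM in ZIP, 20.7 and 21.6 CPM in SCR and 24.2 CPM untransduced (-0.76 ± 0.07, adjusted p = 1.4e-08). SCAP, the escort, was the 1 member that rose: 135 and 131 CPM in ZIP, 102 CPM in both SCR libraries and 119 CPM untransduced (0.39 ± 0.03, adjusted p = 2.7e-10). Per kilobase, INSIG1 was 6.85 and 6.39 times as abundant as INSIG2 in ZIP, 23.6 and 22.2 times in SCR and 8.18 times in untransduced cells.

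SREBF1 and genes tied to the cutting or degradation of proteins of this machinery were taken as a list of 10. In ZIP against SCR 6 rose and 2 fell, beside 32.2% and 33.2% of all genes, with a median log2 fold change of 0.19. The largest fall was that of SREBF1, which encodes SREBP1, the paralogue that mainly drives fatty acid synthesis. It had 15.6 and 13.4 CPM in ZIP, 124 and 122 CPM in SCR and 87.2 CPM untransduced (-3.07 ± 0.05, adjusted p = 8.5e-21). The ubiquitin ligase RNF145 had 29.1 and 28.7 CPM in ZIP, 77.1 CPM in both SCR libraries and 83.2 CPM untransduced (-1.41 ± 0.04). RNF139, another ligase of the endoplasmic reticulum, rose to 79.5 and 80.1 CPM in ZIP, against 50.2 and 50.4 CPM in SCR, with 46.9 CPM untransduced (0.67 ± 0.04). Cytochrome b5 and reductase genes, which hand electrons to the sterol oxidases, gave 2 rises and 3 falls among 5, each under 2-fold. Among all genes 65.4% were called in this comparison. Those with the smallest p were CYB5B at -0.55 ± 0.03, POR at -0.35 ± 0.05 and CYB5R3 at 0.21 ± 0.03.

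Of the genes for lysosomal exit, transport and storage, all 4 fell in ZIP against SCR, but 1 of them by more than 2-fold. Among all genes 33.2% fell, and 11.0% fell at least 2-fold. NPC1 and NPC2 pass cholesterol out of the lysosome after lipoprotein uptake. NPC1 had 44.0 and 43.2 CPM in ZIP, 61.8 and 62.2 CPM in SCR and 40.7 CPM untransduced (-0.51 ± 0.04, adjusted p = 1.0e-09). NPC2 had 30.1 and 29.3 CPM in ZIP, 36.8 and 37.7 CPM in SCR and 50.4 CPM untransduced (-0.33 ± 0.05, adjusted p = 1.5e-05). The untransduced library was thus below both vectors for NPC1 and above both for NPC2. STARD4 (ENSG00000164211, chr5:111496033-111512590), a soluble sterol carrier and SREBP2 target, had 19.0 and 19.2 CPM in ZIP, 80.8 and 78.2 CPM in SCR and 22.4 CPM untransduced, a 4.16-fold fall (-2.06 ± 0.05, adjusted p = 2.0e-18). SOAT1, which esterifies cholesterol for storage, had 21.2 and 19.9 CPM in ZIP, 31.6 and 31.9 CPM in SCR and 12.1 CPM untransduced (-0.62 ± 0.06, adjusted p = 1.2e-08).

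A list of 11 other lipoprotein and scavenger receptors, their chaperones and lysosomal proteins had 5 rises and 6 falls in ZIP against SCR. Among all genes 32.2% rose and 33.2% fell. Changes of at least 2-fold were 3 falls and 0 rises, against 11.0% and 3.13% of all genes. MSR1, one of these falls, had 3 and 4 counts in ZIP and passed the filter on low counts only through SCR. SCARB1, the high-density lipoprotein receptor, had 179.5 and 175 CPM in ZIP, 107 and 103 CPM in SCR and 157 CPM untransduced (0.76 ± 0.03, adjusted p = 1.3e-14). The receptor chaperone LRPAP1 also rose (0.67 ± 0.03). LRP1, a large endocytic receptor abundant in macrophages, had 7.91 and 8.48 CPM in ZIP, 41.0 and 44.9 CPM in SCR and 0.960 CPM untransduced (-2.39 ± 0.07, adjusted p = 1.6e-16).

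ABCA1 (ENSG00000165029, chr9:104781002-104928237), which loads cholesterol and phospholipid onto apolipoproteins, had the largest difference of all 33 members. It had 37 and 32 counts in ZIP, 712 and 754 in SCR and 312 in untransduced cells, or 1.21 and 1.32 CPM in ZIP, 28.1 and 29.3 CPM in SCR and 13.0 CPM untransduced. The ZIP level was 22.7-fold lower than in SCR (-4.50 ± 0.11, adjusted p = 6.7e-18), and 0.56% of all genes had a lower log2 fold change. ABCG1, which exports cholesterol to mature lipoproteins, was scarce, with 5 and 4 counts in ZIP, 22 and 18 in SCR and 7 in untransduced cells. It fell too (-2.22 ± 0.47, adjusted p = 2.6e-04), with the widest error of the members, and it passed the filter on low counts only through SCR, where it was high.

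MYLIP had 46.2 and 49.2 CPM in ZIP, 62.1 and 64.0 CPM in SCR and 19.5 CPM untransduced, a small fall in ZIP against SCR (-0.40 ± 0.04, adjusted p = 5.0e-08). The receptors themselves did not pass the test. NR1H2, which encodes LXR beta, had 51.7 and 53.5 CPM in ZIP, 51.6 and 50.6 CPM in SCR and 64.8 CPM untransduced. Its log2 fold change of ZIP against SCR was 0.04 ± 0.04 (adjusted p = 0.42), and it was -0.02 when libraries were scaled by their totals. NR1H3, which encodes LXR alpha, had 4.44 and 3.56 CPM in ZIP, 4.02 and 3.31 CPM in SCR and 4.22 CPM untransduced (0.14 ± 0.16, adjusted p = 0.45), and was -0.04 without ZIP replicate 1. Per kilobase NR1H2 was 14.1 to 18.6 times as abundant as NR1H3 over the 5 libraries.

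Of 12 listed LXR partners and other LXR targets, 10 could be tested. Of these, 3 rose and 7 fell in ZIP against SCR, beside 32.2% and 33.2% of all genes. LPCAT3, a phospholipid-remodelling enzyme and LXR target, had 33.2 CPM in both ZIP libraries, 63.8 and 65.0 CPM in SCR and 60.9 CPM untransduced (-0.96 ± 0.04, adjusted p = 1.2e-13). The heterodimer partner RXRA rose, with 258 and 259.7 CPM in ZIP, 193 and 186 CPM in SCR and 141 CPM untransduced (0.45 ± 0.03).

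**Figure D3:**
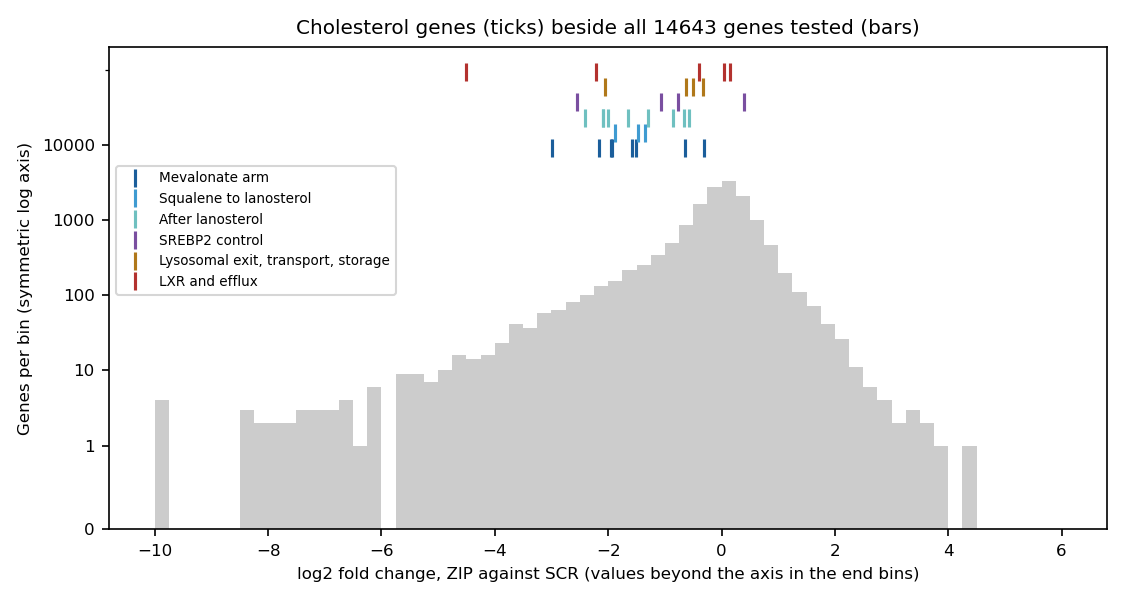
Histogram of the log2 fold change of ZIP against SCR over all 14643 genes tested (grey bars, symmetric log axis for the number of genes), with the 33 cholesterol genes as ticks in rows by role. The ticks of the synthesis genes all lie left of 0, between -3.00 and -0.30, while most genes of the grey distribution lie near 0.

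Set against the untransduced library, the groups parted in opposite directions. These comparisons share that 1 library, whose spread was assumed to be that of the other groups, so their values are given side by side. In ZIP against untransduced cells 28 of 33 members were called, beside 58.2% of 15832 genes: 25 fell, against 29.7% of genes, and 3 rose, against 28.5%. At least 2-fold changes were found for 8 members, against 13.9% of genes: 7 fell, against 5.19%, and 1 (MYLIP) rose, against 8.70%. In SCR against untransduced cells 31 of 33 members were called, beside 64.9% of genes: 27 rose, against 32.7% of genes, and 4 fell, against 32.2%. At least 2-fold changes were found for 12 members, against 20.4% of genes: 12 rose, against 14.5%, and 0 fell, against 5.86%. ABCG1, which passed the filter on low counts only through SCR, is among the 12. The members' median log2 fold change was -0.70 for ZIP and 0.78 for SCR against untransduced cells, beside 0.0015 and 0.016 over all genes. Scaling by library totals moved the median of all genes in SCR against untransduced cells to 0.13.

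Every synthesis gene had its untransduced level between those of the vectors. The share of all genes with this order was not counted. The margin was narrow for CYP51A1 (3.59 CPM untransduced, 3.56 CPM in ZIP replicate 1) and LBR (305 CPM untransduced, 304 CPM in ZIP replicate 2). It was also narrow for PMVK (28.8 CPM untransduced, 29.1 CPM in SCR replicate 1). Of the 20, the untransduced level was nearer to ZIP for 11 and nearer to SCR for 9. In ZIP against untransduced cells 18 of the 20 fell, against 29.7% of all genes. CYP51A1 (-0.13 ± 0.19, adjusted p = 0.59) and LBR (-0.03 ± 0.03, adjusted p = 0.43) did not pass the test. LBR had a value of 0.02 with library totals. In SCR against untransduced cells 19 of the 20 rose, against 32.7% of all genes, and PMVK did not pass (0.03 ± 0.07, adjusted p = 0.77). HMGCS1 was -1.09 ± 0.03 for ZIP and 1.91 ± 0.03 for SCR against untransduced cells. CYP51A1 was at 1.97 ± 0.15 for SCR, the largest of the members in that comparison. MSMO1 and TM7SF2 had the largest falls of the synthesis genes in ZIP against untransduced cells. MSMO1 was at -1.66 ± 0.05 for ZIP and 0.44 ± 0.04 for SCR, and TM7SF2 at -1.63 ± 0.14 for ZIP and 0.78 ± 0.11 for SCR.

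**Figure D4:**
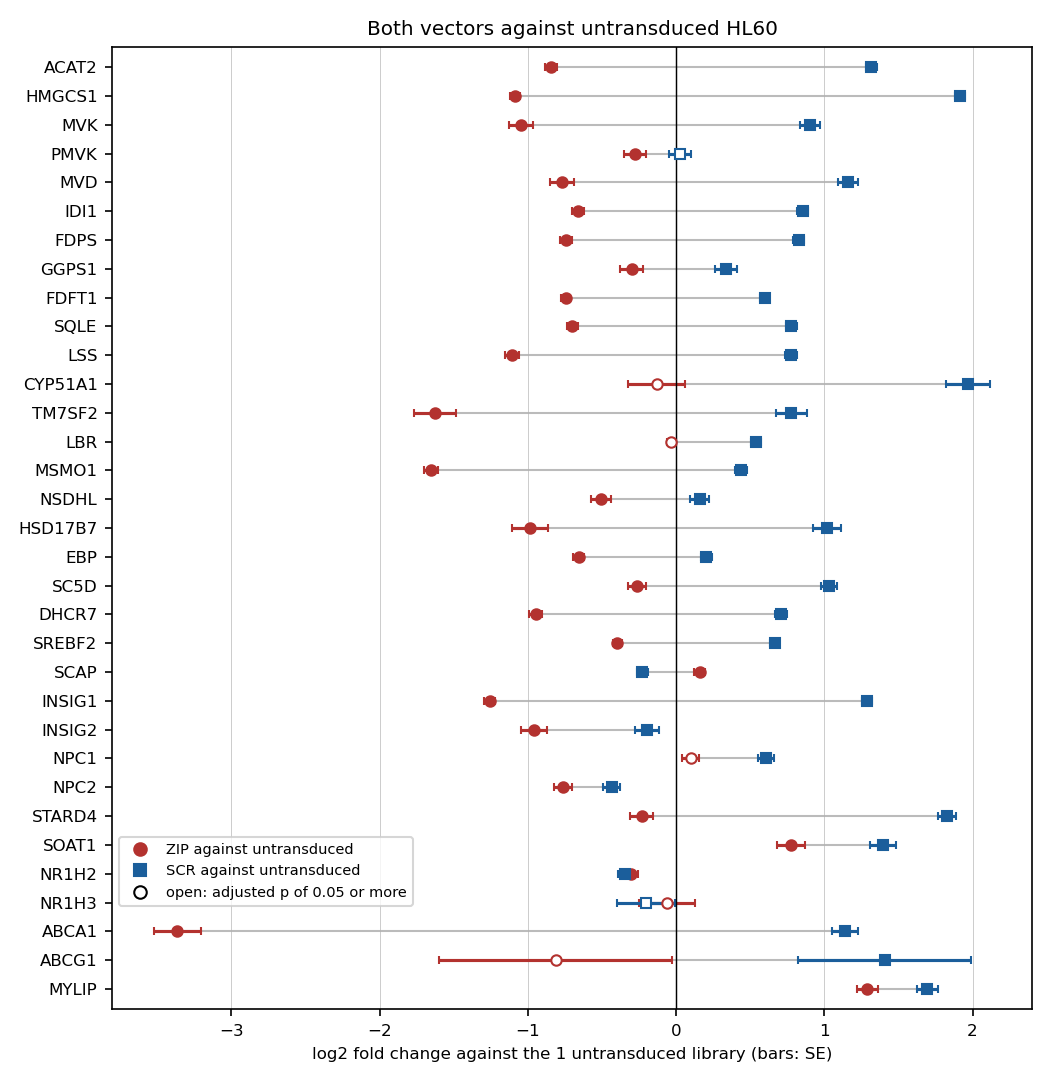
Log2 fold change against the 1 untransduced library for ZIP (red circles) and SCR (blue squares), with standard error bars; open symbols have an adjusted p of 0.05 or more and grey lines join the values of a gene. All 20 synthesis genes have ZIP left of 0 and SCR right of it, from ACAT2 to DHCR7, though CYP51A1 and LBR are open for ZIP and PMVK for SCR. SOAT1 and MYLIP lie right of 0 for both vectors and INSIG2, NPC2 and NR1H2 left of 0 for both.

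Control, storage and efflux genes did not all follow that order. SREBF2 was -0.40 ± 0.03 for ZIP and 0.67 ± 0.03 for SCR against untransduced cells, INSIG1 was -1.26 ± 0.04 for ZIP and 1.29 ± 0.04 for SCR, and SCAP was 0.16 ± 0.04 for ZIP and -0.23 ± 0.04 for SCR. ABCA1 was -3.37 ± 0.16 for ZIP (adjusted p = 2.0e-14) and 1.14 ± 0.09 for SCR. STARD4 was -0.23 ± 0.08 for ZIP and 1.83 ± 0.06 for SCR. Some genes moved the same way under both vectors. MYLIP was 1.29 ± 0.07 for ZIP and 1.70 ± 0.07 for SCR, and SOAT1 was 0.77 ± 0.09 for ZIP and 1.39 ± 0.09 for SCR, so both rose in each. NPC2 was -0.76 ± 0.06 for ZIP and -0.43 ± 0.06 for SCR, and NR1H2 was -0.30 ± 0.05 for ZIP and -0.34 ± 0.05 for SCR, so both fell in each. INSIG2 was -0.96 ± 0.09 for ZIP and -0.19 ± 0.08 for SCR. NPC1 rose in SCR (0.61 ± 0.05) and was 0.10 ± 0.06 in ZIP (adjusted p = 0.14). NR1H3 passed in neither comparison, with -0.06 ± 0.19 for ZIP and -0.20 ± 0.19 for SCR.

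A few of these calls were lost under other settings. The log2 fold changes of SCR against untransduced cells were -0.19 for INSIG2, 0.16 for NSDHL and, from the few counts given above, 1.41 ± 0.58 for ABCG1. In SCR against untransduced cells, DESeq2 did not call INSIG2 (adjusted p = 0.38), ABCG1 (0.31) or NSDHL (0.28). Without SCR replicate 1 the edgeR adjusted p was 0.13 for INSIG2 and 0.15 for ABCG1. Without SCR replicate 2 it was 0.051 for INSIG2, 0.054 for ABCG1 and 0.15 for NSDHL. INSIG2 also lost its call with library totals (0.36) and with no filter (0.074). In ZIP against untransduced cells, DESeq2 did not call PMVK (0.10), GGPS1 (0.087) or STARD4 (0.13), and library totals brought NPC1 past the threshold (0.15 on the log2 scale, adjusted p = 0.027).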

How the data were processed

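Sequencing of RNA from 5 HL60 libraries (2 ZIP, 2 SCR, 1 untransduced) was analysed from the deposited table of raw read counts per gene, with groups from the labels. Per the submitters' processing notes the tools were Bowtie2 and featureCounts, whereas the series' design text names CASAVA 1.8.2, TopHat 2, Cufflinks and HTSeq. The sources used here do not say which of these made the counts, or with which build, annotation and strand setting. Per the labels, the kit was one for small RNA. Whether replicates were separate cultures is not stated, so p-values cover only the spread between libraries, possibly technical. Replicates differed by more than counting noise (mean chi-square per gene 1.88 in ZIP and 2.65 in SCR) and were kept apart.

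IDs were matched to GENCODE 29, where 44305 had a symbol and 6750 had none, and kilobases are of the union of annotated exons. 0 table entries named no gene. With edgeR 4.0.16 (limma 3.58.1, R 4.3.3), filterByExpr (minimum count 10, total 15), TMM factors and the quasi-likelihood test were used. ZIP against SCR used 4 libraries and the other comparisons all 5, each with 2 residual degrees of freedom. The standard error is the size of the log2 fold change over the square root of F. The code was tested on simulated data. DESeq2 1.42.0, library totals, no filter, each ZIP or SCR library left out, all 5 libraries in the fit, and a replicate block were the alternatives. All 33 members are named, and of each other list up to 3 genes with the smallest p in ZIP against SCR. Members and lists were chosen with earlier results of these data known. Some genes of the pathway are not reported here.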

Additional observations from a re-analysis of the deposited data

How the results depend on the processing

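In ZIP against SCR, 31 of 33 members were called (1 higher, 30 lower) under every alternative run. In SCR against untransduced cells 28 to 31 were called, and in ZIP against untransduced cells 25 to 29. Over all genes, the calls of ZIP against untransduced cells were 5953 with DESeq2, against 9212 with edgeR, and the cause was not tested. Leaving out a library gave 8707 to 9088 calls in ZIP against SCR, 9548 to 10556 in SCR against untransduced cells and 8390 to 9169 in ZIP against untransduced cells. Signs turned in genes that were not called. With library totals NR1H2 was -0.0193 in ZIP against SCR and LBR 0.0196 in ZIP against untransduced cells. Without single libraries NR1H3 ranged from -0.0433 to 0.294 in ZIP against SCR and from -0.244 to 0.0851 in ZIP against untransduced cells. No member's log2 fold change moved by more than 0.19 in any comparison. The replicate numbers do not establish pairs: the deviations of ZIP 1 and SCR 1 from their group means correlated at 0.016 over 14643 genes. With the number as a replicate block, ZIP against SCR gave 9709 calls in place of 9571, and 31 members. The single untransduced library and the few counts of ABCG1 limit precision.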

Other observations

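A list of 13 genes attach or build other isoprenoid products (prenyl transferases and their processing enzymes, and the makers of coenzyme Q and dolichol). In ZIP against SCR 9 rose and 1 fell, beside 32.2% and 33.2% of all genes. Of the 13, 0 changed by 2-fold, against 14.1% of all genes. RABGGTB, a subunit of the transferase that lipidates Rab proteins, had 166 and 171 CPM in ZIP and 134 and 140.3 CPM in SCR (log2 fold change 0.30 ± 0.03). ICMT, which methylates prenylated proteins, was 0.20 ± 0.03, and ZMPSTE24, a protease for prenylated proteins, was 0.16 ± 0.03. Of 11 genes for sterol transfer between membranes 10 were tested, and 4 rose and 3 fell, beside 32.2% and 33.2% of all genes. GRAMD1B, which carries cholesterol from the plasma membrane to the endoplasmic reticulum, had 66.5 and 68.4 CPM in ZIP and 35.5 and 35.4 CPM in SCR (0.93 ± 0.04, adjusted p = 1.3e-13). TMEM97, which binds NPC1, was -0.58 ± 0.03, and OSBPL5 was 0.30 ± 0.03.

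Of 6 oxysterol and bile acid enzymes, HSD3B7 alone could be tested, with 20 and 13 counts in ZIP and 81 and 68 in SCR (-2.27 ± 0.25, adjusted p = 8.6e-08). Of 4 genes for making and splitting cholesterol esters besides SOAT1, 2 were tested: CES1, at -0.42 ± 0.09, and NCEH1, which hydrolyses the esters in macrophages, at 0.29 ± 0.06. CES1 had 11.3 and 10.2 CPM in ZIP, 13.6 and 15.3 CPM in SCR and 0.459 CPM in untransduced cells, so both vectors stood far above the untransduced library.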
